A study of Homo sapiens with 16 samples.

Results

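GDF15, KITLG, LIF and SERPINB5 encode secreted or extracellular proteins that have been linked to p53, and they are 4 of the 20612 genes measured in HCT116 cells. HCT116 is a human colorectal cancer cell line. The 4 genes were chosen by name from earlier results of the same RPKM values, to ask which of them need p53 and which are blunted by the drug Entinostat. The values that chose them include Nutlin-3A against DMSO in both genotypes and p53-/- against p53+/+ cells under Nutlin-3A or DMSO. They also include the combination against Nutlin-3A or DMSO in p53+/+ cells. For the 4 genes, those comparisons are given as a description with no test. So are the other comparisons that use the p53+/+ combination libraries, and only the remaining comparisons carry tests. Those others include the genotypes under the combination, the combination against Entinostat in p53+/+ cells, and its difference between genotypes. The choice drew on earlier results across all 8 groups, so the p-values of the remaining tests are not independent of it. The groups were p53-/- cells under the combination of Nutlin-3A and Entinostat, under 5 µM Nutlin-3A, under 2.5 µM Entinostat and under the vehicle DMSO, and p53+/+ cells under the same 4 conditions. Treatment lasted 8 hours. With 2 replicates in each of 8 groups there were 16 libraries of polyadenylated RNA. The labels give no separate doses for the combination, and they say neither how many p53-/- clones were used nor that replicates came from separate cultures. The p-values therefore cover the spread between these libraries alone, and that spread may be technical.

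p53 is a transcription factor that the ubiquitin ligase MDM2 binds and marks for breakdown, and Nutlin-3A occupies the p53 pocket of MDM2 so that p53 accumulates. Entinostat inhibits class I histone deacetylases, enzymes that remove acetyl groups from histones. GDF15 is a distant member of the TGF-beta family and a stress cytokine that acts on the brainstem receptor GFRAL together with the co-receptor RET to lower food intake. KITLG, also called stem cell factor, is made as a membrane protein that proteases can shed, and it activates the receptor tyrosine kinase KIT. LIF is an IL6 family cytokine that signals through LIFR and IL6ST to JAK1 and STAT3, and in mice its uterine expression depends on p53 and is needed for implantation. SERPINB5, or maspin, is a clade B serpin without a conventional signal peptide or measurable protease inhibition, and it is known as a p53 target of epithelial cells.

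Promoter sequences of 3 of the 4 genes were matched in RefSeq (GRCh38.p14) and are shown because these genes behaved differently under Nutlin-3A. Each runs from 250 bases before the start site to 50 bases after it and is written 5′ to 3′ on the strand of the gene. The windows lie at chr19:18385908-18386207 on the plus strand for GDF15, at chr12:88580422-88580721 on the minus strand for KITLG and at chr18:63476708-63477007 on the plus strand for SERPINB5. Capitals mark the TATA motif TATAAA and decamers that depart at no more than 1 base from the p53 half-site consensus around a CATG centre.
GDF15: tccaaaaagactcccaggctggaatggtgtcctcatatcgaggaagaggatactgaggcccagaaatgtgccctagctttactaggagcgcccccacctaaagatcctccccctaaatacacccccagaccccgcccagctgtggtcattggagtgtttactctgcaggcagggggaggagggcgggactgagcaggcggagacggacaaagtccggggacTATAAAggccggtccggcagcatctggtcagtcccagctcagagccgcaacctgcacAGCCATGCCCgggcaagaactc
KITLG: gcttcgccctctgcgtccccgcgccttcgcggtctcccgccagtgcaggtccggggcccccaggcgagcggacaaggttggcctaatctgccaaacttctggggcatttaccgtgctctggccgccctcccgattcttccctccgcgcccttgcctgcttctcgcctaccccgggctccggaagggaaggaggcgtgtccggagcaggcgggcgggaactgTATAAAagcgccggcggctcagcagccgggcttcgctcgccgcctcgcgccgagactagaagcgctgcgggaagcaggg
SERPINB5: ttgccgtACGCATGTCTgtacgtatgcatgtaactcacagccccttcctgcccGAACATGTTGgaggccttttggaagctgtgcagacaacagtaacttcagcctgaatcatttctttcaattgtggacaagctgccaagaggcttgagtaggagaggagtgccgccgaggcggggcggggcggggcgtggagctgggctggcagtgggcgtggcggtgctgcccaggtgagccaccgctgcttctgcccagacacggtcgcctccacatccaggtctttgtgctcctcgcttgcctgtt
The exact p53 half-site consensus was in none of the 3 windows and was in 6.63% of 35116 promoters of the same length. A search that allowed 1 departure around a CATG centre, chosen after these sequences were read, matched 9.56% of all promoters. It found AGCCATGCCC in GDF15, just past the start site, and ACGCATGTCT and GAACATGTTG in SERPINB5, and it found no match in KITLG. TATAAA began 29 bases upstream of the start site in both GDF15 and KITLG and was not in the SERPINB5 window, against 11.5% of all promoters with that motif. GGGCGG, the GC box that binds Sp1, occurred 2 times in each window, searched on both strands, and in 45% of all promoters. In SERPINB5 the GC boxes shared 1 base. LIF was not matched. A match describes the letters of these windows. Binding was not measured, and whether a match bears on the response to Nutlin-3A was not tested.

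Libraries held between 45902800 and 55507300 alignments, so that 1 RPKM (a read count scaled by gene length and library depth) stood for 45.9 to 55.5 reads per kilobase. CDKN1A, the cell cycle inhibitor p21 and a p53 target, averaged 21.8 ± 7.26 RPKM under Nutlin-3A and 18.93 ± 6.8 under DMSO in p53-/- cells, and 911.2 ± 209 under Nutlin-3A and 77.68 ± 16.4 under DMSO in p53+/+ cells (SD, n = 2 each). Of 8 epithelial and intestinal markers, 6 passed the filter of a mean of 0.5 RPKM, while the intestinal markers CDH17 and VIL1 were at most 0.0435 RPKM in any library. The summed level of the 8 ran from 1717 to 2863 RPKM in 7 groups and from 4010 to 4641 RPKM in p53+/+ cells under the combination. Of 10 markers of blood, endothelial and fibroblast cells, 9 stayed below the filter and only COL1A1 passed it. Their summed level was 3.9 to 6.3 RPKM in the 8 libraries with Entinostat and 2.07 to 2.82 RPKM in the 8 without. This sum mainly follows COL1A1, which ran from 2 to 5.8 RPKM, while the other 9 were each at most 0.238 RPKM. The part of these marker shifts in the results was not tested. In bulk RNA, fewer cells of a type and less RNA per cell cannot be told apart.

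GDF15 reached the highest level of the 4 genes and separated the genotypes in every condition. In p53-/- cells replicates 1 and 2 held 32.8 and 24.5 RPKM under the combination, 22.4 and 13.02 under Nutlin-3A, 24.5 and 18.7 under Entinostat, and 19.0 and 13.4 under DMSO. In p53+/+ cells they held 1107 and 669.8 RPKM under the combination, 908.9 and 613.8 under Nutlin-3A, 104.7 and 85.4 under Entinostat, and 115.2 and 68.2 under DMSO. All 8 p53-/- libraries lay below all 8 p53+/+ libraries, and the 4 p53+/+ libraries with Nutlin-3A lay far above the other 4. Its mean in p53+/+ cells ranked 79th under the combination and 83rd under Nutlin-3A among the 20612 genes, against 615th under DMSO. In descending order the group means were 888.5 ± 309 RPKM for the p53+/+ combination, 761.3 ± 209 for p53+/+ Nutlin-3A, 95.04 ± 13.6 for p53+/+ Entinostat, 91.69 ± 33.3 for p53+/+ DMSO, 28.63 ± 5.85 for the p53-/- combination, 21.61 ± 4.05 for p53-/- Entinostat, 17.73 ± 6.67 for p53-/- Nutlin-3A and 16.2 ± 4.03 for p53-/- DMSO (SD, n = 2 each). Within p53+/+ cells the libraries of the combination and Nutlin-3A overlapped, as did those of Entinostat and DMSO. The microRNA gene MIR3189 lies within GDF15 on the same strand.

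SERPINB5 was high in the 4 p53+/+ libraries that received Nutlin-3A and low in the other 12. Replicates 1 and 2 of p53-/- cells held 25.0 and 20.6 RPKM under the combination, 15.97 and 14.9 under Nutlin-3A, 19.4 and 18.1 under Entinostat, and 13.4 and 11.4 under DMSO. Those of p53+/+ cells held 111.9 and 96.7 RPKM under the combination, 118.0 and 87.6 under Nutlin-3A, 16.3 and 14.7 under Entinostat, and 11.4 and 9.71 under DMSO. Unlike GDF15, SERPINB5 was not lower in p53-/- than in p53+/+ cells under DMSO, where the means were 12.41 ± 1.45 and 10.53 ± 1.16 RPKM (SD, n = 2 each). The highest group means were 104.3 ± 10.8 RPKM under the combination and 102.8 ± 21.5 under Nutlin-3A in p53+/+ cells, which overlapped. The next, 22.79 ± 3.08 RPKM, was that of p53-/- cells under the combination.

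LIF had the lowest level of the 4 in every p53-/- group, and its level differed both by genotype and by Entinostat. For p53-/- cells the replicates held 2.97 and 3.73 RPKM under the combination, 9.62 and 6.85 under Nutlin-3A, 2.904 and 3.35 under Entinostat, and 9.59 and 7.04 under DMSO. In p53+/+ cells they held 9.68 and 17.3 RPKM under the combination, 30.8 and 38.2 under Nutlin-3A, 4.94 and 10.3 under Entinostat, and 17.1 and 21.6 under DMSO. In each genotype the libraries with Entinostat alone lay below those with DMSO alone, and in each condition the p53-/- libraries lay below the p53+/+ libraries. The p53+/+ combination and p53+/+ DMSO libraries overlapped, with means of 13.51 ± 5.42 and 19.35 ± 3.17 RPKM (SD, n = 2 each).

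KITLG divided the libraries by Entinostat and not by genotype. Among p53-/- libraries replicates 1 and 2 held 38.2 and 66.0 RPKM under the combination, 117.5 and 152.4 under Nutlin-3A, 34.4 and 67.4 under Entinostat, and 114.3 and 117.9 under DMSO. In p53+/+ cells they held 34.2 and 66.8 RPKM under the combination, 139.2 and 148.4 under Nutlin-3A, 38.3 and 53.7 under Entinostat, and 122.8 and 118.4 under DMSO. The 8 libraries with Entinostat ran from 34.2 to 67.4 RPKM with a median of 46, and the 8 without ran from 114 to 152 with a median of 121. With Entinostat, replicate 1 held between 0.5103 and 0.7137 of the level of replicate 2 in each of the 4 groups. The name of a p53 response is borne out least by KITLG, whose Nutlin-3A and DMSO levels lay close together in both genotypes.

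**Figure D1:**
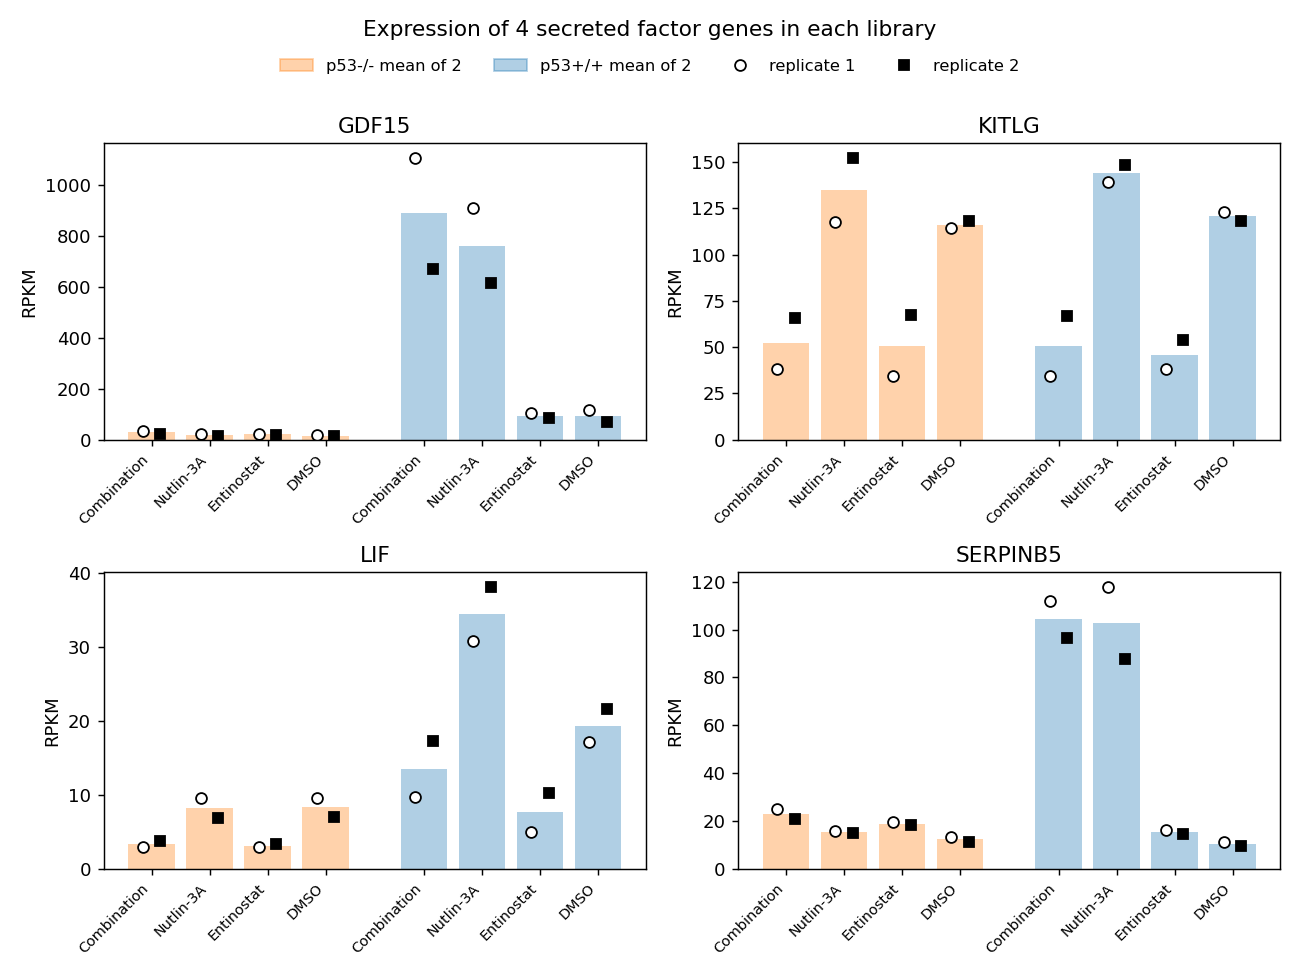
RPKM of GDF15, KITLG, LIF and SERPINB5 (vertical axes, linear from 0) in the 8 groups. Bars are means of 2 replicates, open circles are replicate 1 and filled squares replicate 2. GDF15 and SERPINB5 stand high only under Nutlin-3A or the combination in p53+/+ cells, KITLG is low in all 4 groups with Entinostat, and LIF is lower with Entinostat and lower in p53-/- cells.

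Nutlin-3A against DMSO was part of what chose the genes, and its changes, like all below, are on the log2(RPKM + 0.5) scale, which understates the change of low genes. In p53-/- cells the log2 changes were 0.10 for GDF15, 0.31 for SERPINB5, -0.02 for LIF and 0.20 for KITLG. SERPINB5 was 1.24-fold higher without overlap of libraries, at place 130 of 12466 genes. Libraries overlapped for GDF15, LIF and KITLG. There limma called 0 genes, so the share called higher was 0%.

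The same comparison in p53+/+ cells showed a wide range between the genes. SERPINB5 was 9.76-fold and GDF15 8.3-fold higher by the ratio of mean RPKM, with log2 changes of 3.22 and 3.07 that were the 5th and 6th highest of the 12466 genes tested. LIF was 1.78-fold and KITLG 1.19-fold higher, with log2 changes of 0.82 and 0.25 at places 386 and 2238. Nutlin-3A and DMSO libraries did not overlap for any of the 4 genes. In this comparison 7.89% of all tested genes were called higher and 9.5% lower at an adjusted p under 0.05, and nothing is read from the members' count because the comparison chose them. The response in p53-/- minus that in p53+/+ cells was -2.97 for GDF15, -2.91 for SERPINB5, -0.84 for LIF and -0.05 for KITLG, where 3.49% of genes were called lower. GDF15 and SERPINB5 were thus set apart by genotype the most under Nutlin-3A and KITLG the least.

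Basal levels separated GDF15 and LIF from SERPINB5 and KITLG. Under DMSO, GDF15 was 5.66-fold lower and LIF 2.33-fold lower in p53-/- than in p53+/+ cells, with log2 differences of -2.44 and -1.18, while those of SERPINB5 and KITLG were 0.23 and -0.05. The background of this comparison was 3.13% of genes called lower. Under Nutlin-3A, GDF15 was 42.9-fold lower in p53-/- cells, with a log2 difference of -5.41 that was the lowest of all 12466 genes. SERPINB5 was 6.66-fold lower there and LIF 4.19-fold lower, with log2 differences of -2.68 and -2.01, beside 16.9% of genes called lower. KITLG differed by -0.10.

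The combination against Nutlin-3A in p53+/+ cells also belonged to the choice of the genes, and it parted them into pairs. LIF held 39.1% and KITLG 35.1% of the Nutlin-3A level, with log2 changes of -1.37 and -1.58 and no overlap between libraries. GDF15 and SERPINB5 held 1.17 and 1.01 times the Nutlin-3A level, with log2 changes of 0.21 and 0.03 and overlapping libraries. The share of genes called lower was 18.1%. Against DMSO, the combination left GDF15 and SERPINB5 higher by log2 changes of 3.27 and 3.25, where 23.2% of genes were called higher. Against DMSO, LIF was at 69.8% with overlapping libraries and a log2 change of -0.55. KITLG was at 41.9% without overlap, with a log2 change of -1.32, where 26.8% of genes were called lower. The Entinostat effect with minus without Nutlin-3A in p53+/+ cells was 0.11 for GDF15, -0.18 for KITLG, -0.01 for LIF and -0.50 for SERPINB5, and limma called 0 genes in it.

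Entinostat alone against DMSO shares DMSO libraries with comparisons that chose the genes, and earlier results across all 8 groups were known. Its p-values are therefore not independent of the choice. In p53-/- cells KITLG fell to 43.8% and LIF to 37.6% of DMSO, with log2 changes of -1.26 ± 0.35 and -1.27 ± 0.32 (SE; adjusted p = 0.0189 and 0.0124 by limma). SERPINB5 rose 1.51-fold in p53-/- cells, by a log2 change of 0.58 ± 0.15 (adjusted p = 0.0138 by limma), and was higher in 2 of 2 libraries than in either DMSO library. GDF15 changed by 0.41 (95% interval -0.32 to 1.15; adjusted p = 0.384 by limma), and with replicate number as a block its adjusted p was 0.00824. The background was 15% of genes called higher and 13.3% called lower.

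In p53+/+ cells Entinostat gave similar values. KITLG fell to 38.1% and LIF to 39.4% of DMSO, with log2 changes of -1.40 ± 0.35 and -1.36 ± 0.32 (SE; adjusted p = 0.0124 and 0.00962 by limma). SERPINB5 rose 1.47-fold, by 0.54 ± 0.15 (adjusted p = 0.0205 by limma). GDF15 changed by 0.09 (95% interval -0.64 to 0.82; adjusted p = 0.868 by limma), with libraries that overlapped. The background was 15.1% of genes called higher and 12.4% called lower.

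The response to Entinostat in p53-/- minus that in p53+/+ cells was 0.14 for KITLG (95% interval -0.93 to 1.21), 0.09 for LIF (-0.89 to 1.08), 0.04 for SERPINB5 (-0.42 to 0.50) and 0.32 for GDF15 (-0.71 to 1.36). None of these passed the test (adjusted p = 1 by limma), and limma called 0 genes in this difference, against 164 at an unadjusted p under 0.05 and 4 with the replicate block. These intervals still allow a difference of up to 1.21 for KITLG and 1.08 for LIF.

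These Entinostat calls rest on 2 libraries a group, and each was lost when some single libraries were left out of the fit without a replicate block. With the replicate block all were kept. In p53-/- cells the block gave adjusted p of 6.69e-04 for KITLG, 0.0025 for LIF and 1.76e-04 for SERPINB5 by limma. In p53+/+ cells it gave 3.25e-04, 0.0016 and 2.61e-04 for the same genes. Without replicate 1 of the Entinostat group, KITLG lost its call in p53-/- cells (-0.78, adjusted p = 0.198 by limma) and in p53+/+ cells (-1.16, adjusted p = 0.117 by limma). KITLG also lost it without either DMSO library, where its change was -1.28 or -1.24 in p53-/- cells and -1.38 or -1.43 in p53+/+ cells. LIF lost its call without replicate 1 of the Entinostat group, with adjusted p = 0.0926 in p53-/- cells and 0.116 in p53+/+ cells by limma, where its change was then -0.87. It also lost it without p53-/- DMSO replicate 1 (0.0869) or p53+/+ DMSO replicate 2 (0.0771). SERPINB5 lost its call without replicate 1 of the Entinostat group or replicate 2 of the DMSO group, with adjusted p of 0.103 and 0.111 in p53-/- cells and 0.153 and 0.15 in p53+/+ cells by limma. The direction was kept for KITLG, LIF and SERPINB5 in each of these.

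Compared within a replicate number, KITLG and LIF fell further with Entinostat in replicate 1 than in replicate 2, in both genotypes, with and without Nutlin-3A. In replicate 1, KITLG held 0.325 of the Nutlin-3A level under the combination and 0.301 of the DMSO level under Entinostat in p53-/- cells, and 0.246 and 0.312 in p53+/+ cells. In replicate 2 the same ratios were 0.433 and 0.571 in p53-/- cells and 0.45 and 0.453 in p53+/+ cells. For LIF they were 0.309 and 0.303 in p53-/- cells and 0.314 and 0.289 in p53+/+ cells in replicate 1, and 0.544 and 0.475 in p53-/- cells and 0.454 and 0.478 in p53+/+ cells in replicate 2. All 16 ratios were below 1, and for both genes each ratio of replicate 1 was lower than its counterpart in replicate 2.

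The combination against Nutlin-3A in p53-/- cells tested Entinostat on top of Nutlin-3A where p53 was missing. It shares the p53-/- Nutlin-3A libraries with comparisons that chose the genes, so its p-values are not independent of that choice. KITLG fell to 38.6% (-1.41 ± 0.35, adjusted p = 0.0146 by limma) and LIF to 40.7% (-1.17 ± 0.32, adjusted p = 0.0219 by limma) of the Nutlin-3A level, beside 9.75% of genes called lower. SERPINB5 rose 1.48-fold (0.54 ± 0.15, adjusted p = 0.023 by limma), beside 13.6% called higher. GDF15 changed by 0.71 (95% interval -0.02 to 1.44; adjusted p = 0.146 by limma), with both combination libraries above both Nutlin-3A libraries, and the replicate block gave an adjusted p of 3.65e-04. Without p53-/- combination replicate 1, the calls of KITLG (-1.01, adjusted p = 0.17), LIF (0.17) and SERPINB5 (0.217) were lost. KITLG also lost its call without p53-/- Nutlin-3A replicate 2 (0.0888), LIF without replicate 1 (0.139) and SERPINB5 without either (0.0727 and 0.105), all by limma.

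The combination against Entinostat alone asked what Nutlin-3A added when Entinostat was present. In p53+/+ cells it shares the combination libraries with the listed comparisons that chose the genes. In p53-/- cells the changes were 0.40 for GDF15, 0.27 for SERPINB5, 0.08 for LIF and 0.06 for KITLG (adjusted p = 1 each by limma), and limma called 0 genes there, against 48 at an unadjusted p under 0.05. The p53-/- libraries overlapped for LIF and KITLG, while for GDF15 and SERPINB5 both combination libraries lay above both Entinostat libraries. In p53+/+ cells the comparison is a description with no test, because those combination libraries were among the values that chose the genes. There GDF15 was 9.35-fold and SERPINB5 6.74-fold higher, with log2 changes of 3.18 and 2.71, each in 2 of 2 libraries. Nothing is read from them beside the 5.16% of genes called higher and 9.69% called lower. LIF was 1.77 times as high with overlapping libraries, by 0.81. Without p53+/+ Entinostat replicate 2 the LIF change was 1.31, and without replicate 1 of that group it was 0.32. KITLG changed by 0.08.

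The response to the combination against Entinostat in p53-/- minus that in p53+/+ cells uses the same combination libraries. It is likewise a description with no test. The difference was -2.79 for GDF15 and -2.44 for SERPINB5, where 1.35% of genes were called lower. It was -0.73 for LIF and -0.02 for KITLG.

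The genotypes under the combination are a description with no test, because the p53+/+ combination libraries were among the values that chose the genes. There GDF15 was 31-fold lower, SERPINB5 4.58-fold lower and LIF 4.04-fold lower in p53-/- than in p53+/+ cells, with log2 differences of -4.90, -2.17 and -1.82, and nothing is read from them beside the 15.9% of genes called lower. KITLG differed by 0.07. Under Entinostat alone GDF15 was 4.4-fold lower in p53-/- cells (-2.12 ± 0.34, adjusted p = 0.00328 by limma), beside 2.4% called lower. GDF15 was also lower in p53-/- cells under DMSO and under Nutlin-3A, comparisons that chose it. The p-value is therefore not independent of that choice.

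Under Entinostat alone LIF differed by -1.08 between p53-/- and p53+/+ cells (95% interval -1.78 to -0.39; adjusted p = 0.0956 by limma), and the replicate block gave an adjusted p of 0.0204. Without p53+/+ Entinostat replicate 1 the difference was -1.58 (adjusted p = 0.0317 by limma), and without replicate 2 of that group it was -0.59. SERPINB5 differed by 0.27 (adjusted p = 0.402 by limma, and 0.0445 with the replicate block) and KITLG by 0.09 (95% interval -0.67 to 0.84; adjusted p = 0.94 by limma).

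**Figure D2:**
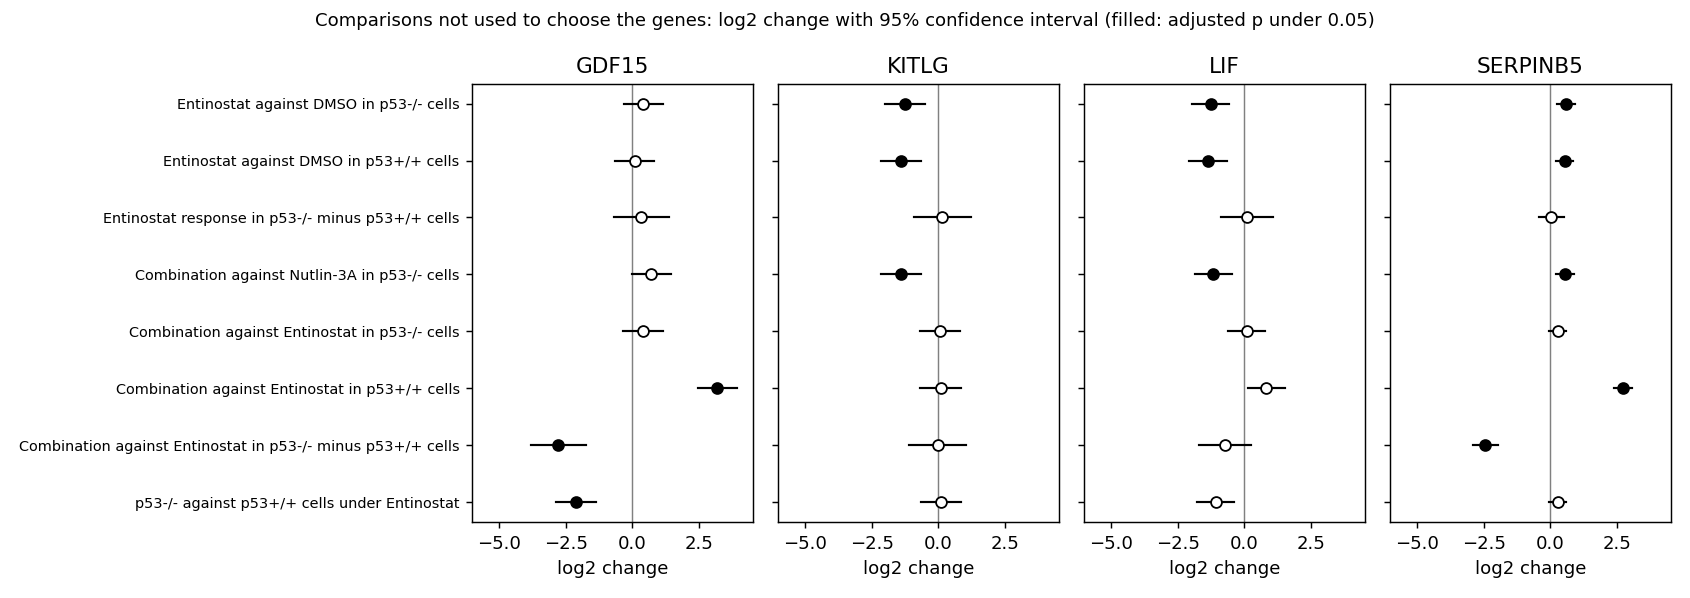
Log2 change of RPKM + 0.5 (horizontal axes) for each gene in 8 comparisons (rows). Points are limma estimates, bars their 95% intervals, and filled points have an adjusted p under 0.05. The heading above the panels says that these comparisons were not used to choose the genes. That wording does not hold, because the choice drew on earlier results across all 8 groups. The combination against Entinostat in p53+/+ cells and its difference between genotypes are a description. Nothing is read from their intervals or filled points, because the p53+/+ combination libraries were among the values that chose the genes. KITLG and LIF lie below 0 where Entinostat was added, and GDF15 and SERPINB5 lie above 0 for the combination against Entinostat in p53+/+ cells.

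Of the receptors of the ligands GDF15, KITLG and LIF, GFRAL and KIT were hardly detected in these cells. The list of receptors and the lists below were chosen with earlier results of these data known. Their counts and p-values are therefore no independent support. GFRAL, the GDF15 receptor, was at most 0.022 RPKM and KIT, the KITLG receptor, at most 0.00806 RPKM in any library, so both were at or near 0. RET, the GDF15 co-receptor, averaged 1.608 ± 0.344 RPKM under Entinostat and 0.863 ± 0.152 under DMSO in p53-/- cells, and 1.413 ± 0.524 and 0.6006 ± 0.165 in p53+/+ cells under the same conditions (SD, n = 2 each). LIFR, which binds LIF, rose with Entinostat to 4.582 ± 0.133 RPKM, against 1.673 ± 0.322 under DMSO, in p53-/- cells (log2 change 1.23, adjusted p = 7.25e-04 by limma). In p53+/+ cells it rose to 3.916 ± 0.314 RPKM under Entinostat, against 1.478 ± 0.0395 under DMSO (1.16, adjusted p = 0.00104 by limma). LIFR thus rose in the libraries in which LIF fell.

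STAT3, the transcription factor downstream of LIF, rose with Nutlin-3A in p53+/+ cells to 30.62 ± 2.24 RPKM, against 14.63 ± 0.0921 under DMSO (SD, n = 2 each; log2 change 1.04, adjusted p = 0.00145 by limma). Of the 8 tested members of the list of receptors and signal carriers, STAT3 alone passed the test in that comparison, beside 7.89% of all genes called higher and 9.5% lower. None of the 8 was called in p53-/- cells, where limma called 0 of all 12466 genes. With Entinostat 2 rose and 0 fell in p53-/- cells, LIFR and JAK1 (0.40, adjusted p = 0.0166), and 4 rose and 0 fell in p53+/+ cells, LIFR, RET (0.78, adjusted p = 0.0276), STAT3 (0.50, adjusted p = 0.0481) and the kinase JAK1 (0.44, adjusted p = 0.0107), all by limma. Of all genes, 15% were called higher in p53-/- cells, a share near that of the list, and 15.1% in p53+/+ cells. The count of rises was 1 without either p53-/- Entinostat library or p53-/- DMSO replicate 1. In p53+/+ cells it was 1 without Entinostat replicate 1 or DMSO replicate 1 and 2 without DMSO replicate 2. LIFR kept its call each time. The median log2 change of the 8 with Entinostat was 0.32 in p53-/- and 0.37 in p53+/+ cells, against 0.02 and 0.01 for all genes. The shared receptor subunit IL6ST, the kinases JAK2 and TYK2 and the feedback inhibitor SOCS3 did not pass the test for Entinostat, with changes between -0.23 and 0.37.

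Among 7 tested proteases of the kinds that cut such precursors or shed membrane ligands, 1 rose with Nutlin-3A in p53+/+ cells and none fell, beside 7.89% and 9.5% of all genes. It was MMP14, a membrane metalloprotease (0.77, adjusted p = 0.00327 by limma). With Entinostat 1 rose and 1 fell in each genotype, near the shares of all genes called, which were 15% higher and 13.3% lower in p53-/- cells and 15.1% higher and 12.4% lower in p53+/+ cells. The rises, of the sheddase ADAM17 in p53-/- cells and of the convertase PCSK5 in p53+/+ cells, were lost without any 1 library of their groups. MMP14 was the one that fell, by 0.57 in p53-/- cells (adjusted p = 0.0141) and by 0.74 in p53+/+ cells (adjusted p = 0.00475 by limma). Both falls missed the threshold without replicate 1 of the Entinostat group (adjusted p = 0.0885 and 0.0586). In p53-/- cells the fall also missed it without DMSO replicate 1 (0.0996). FURIN, the proprotein convertase, had group means between 12.96 and 15.06 RPKM.

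Some other secreted factors that have been linked to p53 rose with Nutlin-3A in p53+/+ cells. Because this list was also chosen with earlier results of these data known, its counts and p-values are a description of the listed genes. Of 27 listed, 17 passed the filter, and 6 of these rose and 0 fell, beside 7.89% of all genes called higher and 9.5% lower. The other 11 were not called. The median log2 change of the 17 was 0.51 against -0.02 for all genes. The EGF receptor ligand AREG rose by 1.99 (adjusted p = 0.00154), the semaphorins SEMA3B by 1.40 (5.3e-04) and SEMA3F by 1.16 (0.00283), and the macrophage growth factor CSF1 by 1.13 (5.73e-04), all by limma. DKK1 and TGFA also rose. The count was 5 without p53+/+ Nutlin-3A replicate 1 and 6 without any other single library. In p53-/- cells limma called none of the 17, nor any of the 12466 genes.

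For the combination against Entinostat in p53+/+ cells 5 of the 17 rose and 0 fell, beside 5.16% of all genes called higher and 9.69% lower, with a median of 0.40 against -0.04. DKK1, a secreted Wnt inhibitor, rose by 1.13 (adjusted p = 0.00275), and AREG by 1.31 (0.0219) and the chemokine CXCL8 by 1.06 (0.008 by limma). The count was 2 without p53+/+ combination replicate 1 and 1 without p53+/+ Entinostat replicate 2, and AREG and CXCL8 lost their calls without either. AREG also lost its call without p53+/+ Entinostat replicate 1 (adjusted p = 0.0586).

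Entinostat alone raised 6 and lowered 1 of the 17 in p53-/- cells, and raised 5 and lowered 1 in p53+/+ cells. Of all genes, 15% were called higher and 13.3% lower in p53-/- cells, and 15.1% higher and 12.4% lower in p53+/+ cells. The EGF receptor ligand EREG was the one that fell, by 1.25 in p53-/- cells (adjusted p = 0.00432) and by 2.02 in p53+/+ cells (5.87e-04 by limma). THBS1, the matrix protein thrombospondin 1, rose by 1.59 in p53-/- cells (0.00434) and by 1.78 in p53+/+ cells (0.00272), and CXCL8 by 0.98 in p53-/- cells (0.00821) and by 1.25 in p53+/+ cells (0.00282). Without p53-/- Entinostat replicate 1 none of the 17 was called in p53-/- cells (THBS1 1.17, adjusted p = 0.0589; EREG -0.98, adjusted p = 0.0588). The rises numbered 3 without p53-/- DMSO replicate 1 and 1 without p53-/- DMSO replicate 2. In p53+/+ cells they numbered 2 without Entinostat replicate 1 or DMSO replicate 2 and 3 without DMSO replicate 1.

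**Figure D3:**
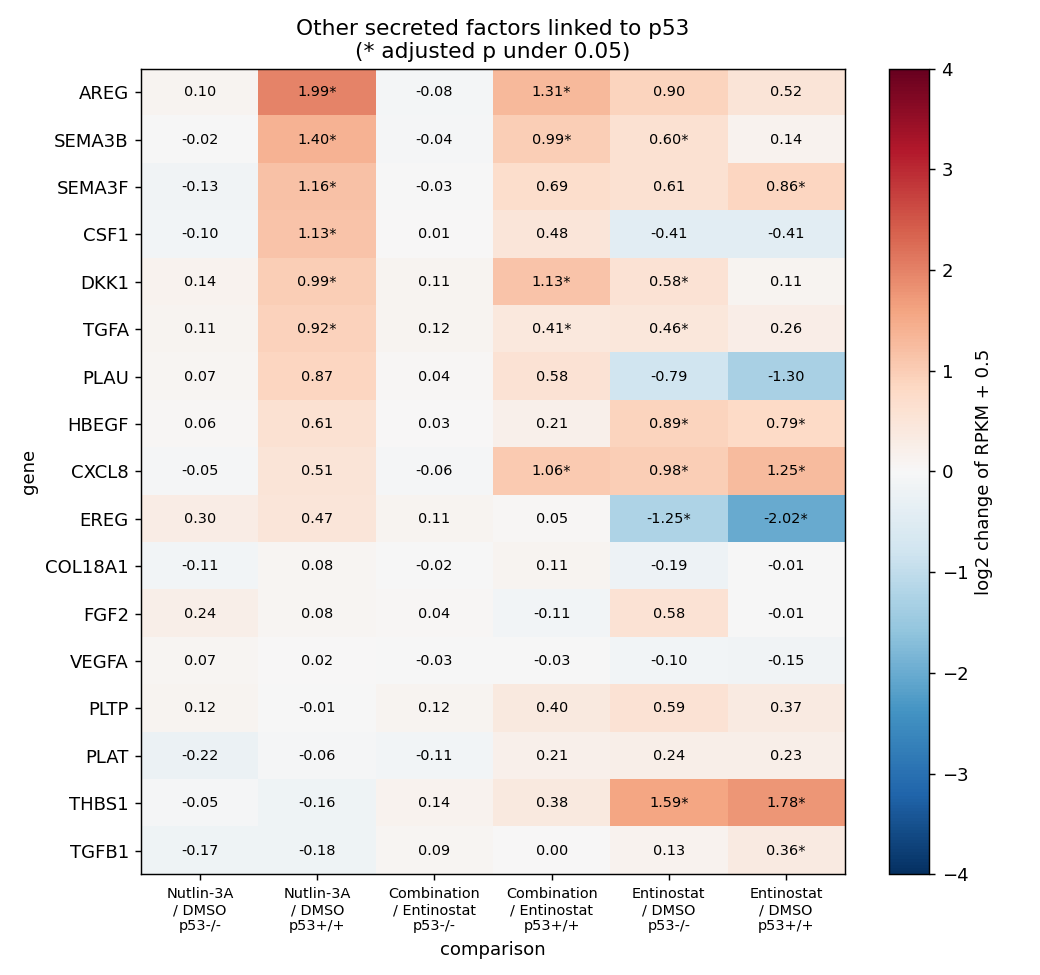
Log2 change of RPKM + 0.5 (colour scale) for 17 other secreted factors linked to p53 (rows) in 6 comparisons (columns), with an asterisk at an adjusted p under 0.05. AREG, at 1.99 for Nutlin-3A in p53+/+ cells, holds the darkest red cell, EREG, at -2.02 for Entinostat in p53+/+ cells, the darkest blue cell, and both p53-/- columns with Nutlin-3A added are pale.

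The pattern over the 8 group means, compared with 11512 genes of at least 1 RPKM on average, differed between the 4 genes. Between GDF15 and SERPINB5 Pearson's r of log2(RPKM + 0.5) was 0.84, between GDF15 and LIF 0.73, between LIF and KITLG 0.63 and between LIF and SERPINB5 0.47. KITLG had r of -0.03 with GDF15 and -0.08 with SERPINB5. These values describe 8 points that share genotypes and drugs, and are given with no test.

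The 5 genes most like GDF15 were IGBP1 (r = 0.9969), TSC22D1, DDB2, TBC1D10A and LOXL1 (0.9953). DDB2, which encodes a DNA damage binding protein, averaged between 10.4 and 13.3 RPKM in p53-/- groups, and 77.4 RPKM under the combination, 66.4 under Nutlin-3A, 24.1 under Entinostat and 23.9 under DMSO in p53+/+ cells. SERPINB5 was followed most closely by BIK (0.9903), YPEL3, MIR4697HG, CYP4F3 and GADD45A (0.9818). GADD45A, a growth arrest gene, averaged 74.9, 87.9, 33.3 and 25.2 RPKM in the p53+/+ groups in the same order of conditions. BIK encodes a BH3-only protein of the BCL2 family.

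Nearest to LIF were RXRA (0.9903), WIPI1, UBXN6, MRRF and PER2 (0.9883). The retinoid X receptor gene RXRA averaged 4.48 RPKM under the combination, 5.71 under Nutlin-3A, 4.57 under Entinostat and 5.49 under DMSO in p53-/- cells, and 6.23, 8.51, 5.27 and 7.07 RPKM in p53+/+ cells in the same order of conditions. Nearest to KITLG were PAN3 (0.9958), LRP8, GPBP1L1, ATG14 and ZBTB20 (0.9926). LRP8, a lipoprotein receptor, averaged 6.31, 8.97, 6.04 and 8.62 RPKM in p53-/- cells and 6.27, 9.79, 6.07 and 8.77 RPKM in p53+/+ cells, again in that order. The correlation takes no account of the size of a change.

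**Figure D4:**
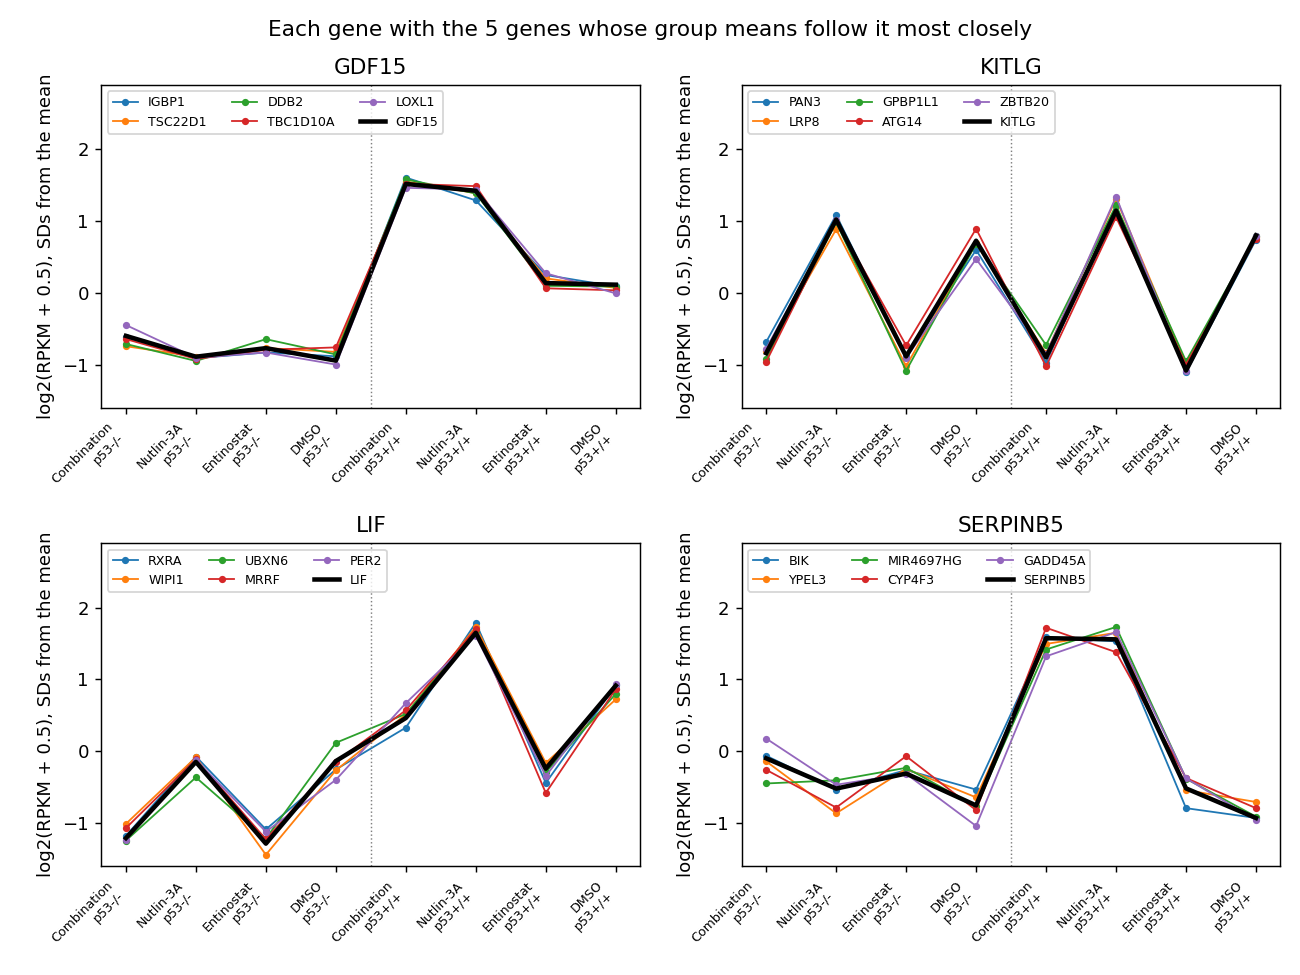
Group means of log2(RPKM + 0.5), in SDs from each gene's own mean over the 8 groups (vertical axes), for the 4 genes in black and for the 5 genes most like each in colour, across the 8 groups (horizontal axes, p53-/- left of the dotted line). GDF15 and SERPINB5 peak under the combination and Nutlin-3A in p53+/+ cells, LIF peaks under Nutlin-3A in p53+/+ cells, and KITLG dips in the 4 groups with Entinostat.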

How the data were processed

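The deposited table holds RPKM of 20612 genes over 16 libraries, which the authors scaled by gene length and library size. The submitters' processing notes name Bowtie2, hg19 and Partek, while versions, gene models and strand counting are given by none of the sources used here. Per the labels, the kit was stranded and polyadenylated RNA was used. KITLG overlaps the antisense gene AC024941.2, and LIF overlaps LIF-AS1 and AC004264.1 (GENCODE), whose reads cannot be told apart from theirs without strand counting.

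Genes with a mean of at least 0.5 RPKM over all libraries were tested, 12466 in all, including all 4 members. log2(RPKM + 0.5) was modelled by group means in limma 3.58.1 (R 4.3.3) with an intensity trend. The residual degrees of freedom were 8 and the prior ones 4.09. p-values were adjusted by Benjamini-Hochberg over all tested genes per comparison and called under 0.05. Folds and percentages are ratios of mean RPKM. Intervals cover 95%. The code was tested on simulated data.

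Replicate numbers are in the labels. Deviations of same-numbered samples correlated in each of 28 group pairs (r between 0.27 and 0.78, median 0.43), so the numbers pair the samples. The main p-values take no account of this pairing, and a block on replicate was an alternative. The fits that left out a library were made without the block. The others were pseudocounts of 0.1 and 1, no filter, median-of-ratios scaling and leaving out each library.

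The 4 members and the gene lists were chosen with earlier results of these data known, so list counts and p-values are not independent of those results. The lists cover receptors and signal carriers, proteases, other secreted factors, TGF-beta family ligands, IL6 family cytokines, relatives of KITLG, clade B serpins, p53 targets, stress factors, epithelial markers and markers of other cell types. Besides the members and all receptors, up to 4 called genes per list and comparison, by size of change, could be named, with CDKN1A and MDM2. Other named genes were chosen after their values were seen. Genes most alike had the highest Pearson's r over group means. Some genes are not reported here, and the list counts leave them out.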

Additional observations from a re-analysis of the deposited data

Results flagged for a closer look

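GDF15 and SERPINB5 changed by different amounts in the 2 genotypes when Nutlin-3A was added to Entinostat. The log2 change in p53-/- minus that in p53+/+ cells was -2.79 for GDF15, with changes of 0.40 in p53-/- and 3.18 in p53+/+ cells. For SERPINB5 it was -2.44, with changes of 0.27 in p53-/- and 2.71 in p53+/+ cells. These differences are a description with no test, because the p53+/+ combination libraries were among the values that chose the genes. The number of replicates, 2 a group, was too small for a search for outlying samples.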

How the results depend on the processing

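No result of the 4 genes or of the lists reversed its direction while called under any alternative. With the replicate block the counts of called genes rose to 3931 for Nutlin-3A against DMSO in p53+/+ cells, against 2167 without it, and to 2126 for the difference in that response between genotypes (845), 1634 for p53-/- against p53+/+ cells under DMSO (585) and 1644 under Entinostat (469). They also rose to 5677 and 5565 for Entinostat against DMSO in p53-/- (3520) and p53+/+ cells (3434), 5141 and 6529 for the combination against Nutlin-3A in p53-/- (2912) and p53+/+ cells (4323), 3896 for the combination against Entinostat in p53+/+ cells (1851), 1776 for its difference between genotypes (439) and 4 for the difference in the Entinostat response (0). With the block 5 adjusted p-values of members fell under 0.05 that had been above it. For GDF15 these were Entinostat against DMSO (0.41) and the combination against Nutlin-3A (0.71), both in p53-/- cells. For p53-/- against p53+/+ cells under Entinostat they were those of LIF (-1.08) and SERPINB5 (0.27). The last was LIF for the combination against Entinostat in p53+/+ cells (0.81). That comparison is a description, and nothing is read from its p-value, because those combination libraries were among the values that chose the genes. The block on replicate pairing changed no other call of a member.

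Without the filter on low values the calls of KITLG for Entinostat against DMSO (-1.26, adjusted p = 0.0522) and of LIF for the combination against Nutlin-3A (-1.17, adjusted p = 0.0565 by limma) in p53-/- cells were lost, and the cause was not tested. The counts without it were 1 for Nutlin-3A against DMSO and 13 for the combination against Entinostat in p53-/- cells, 25 for the Entinostat effect with minus without Nutlin-3A in p53+/+ cells and 14 for the difference in the Entinostat response, each against 0. The other pseudocounts and scaling moved no call of a member.

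With each library left out in turn, the counts ran from 1031 to 1445 for Nutlin-3A in p53+/+ cells, 425 to 691 for its difference, 240 to 343 for the genotypes under DMSO, 2711 to 3561 under Nutlin-3A, 172 to 265 under Entinostat and 2345 to 4768 under the combination. They ran from 837 to 2988 and 778 to 2792 for Entinostat against DMSO in p53-/- and p53+/+ cells, 412 to 2906 and 1703 to 4805 for the combination against Nutlin-3A in p53-/- and p53+/+ cells, 4118 to 6290 for the combination against DMSO, 723 to 2418 for the combination against Entinostat in p53+/+ cells, 135 to 1091 for its difference and 0 to 4 for the Entinostat effect with minus without Nutlin-3A. For Entinostat against DMSO in p53-/- cells the ranges were -1.74 to -0.78 for KITLG, -1.48 to -1.06 for LIF and 0.47 to 0.69 for SERPINB5. In p53+/+ cells they were -1.64 to -1.16, -1.86 to -0.87 and 0.43 to 0.64 for the same genes, and for the combination against Nutlin-3A in p53-/- cells -1.80 to -1.01, -1.40 to -0.94 and 0.41 to 0.68. LIF ran from 0.32 to 1.31 for the combination against Entinostat in p53+/+ cells and from -1.58 to -0.59 between genotypes under Entinostat. Leaving out a library ended a call of a member in 21 cases and made one in 2, and 137 stayed on the same side of the threshold. The cause was not tested. These cases include the comparisons with the p53+/+ combination libraries, which are a description. With 2 replicates a group, a lone remaining library was taken to vary like the other groups.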

Other observations

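Relatives of the 4 genes gave the following values, to be read against the shares of all tested genes called. These were 7.89% higher and 9.5% lower with Nutlin-3A in p53+/+ cells, 15% higher and 13.3% lower with Entinostat in p53-/- cells, and 15.1% higher and 12.4% lower with Entinostat in p53+/+ cells. Of 11 other clade B serpins measured, 4 passed the filter, and with Entinostat 2 of these rose in each genotype, SERPINB9, the granzyme B inhibitor (1.66 in p53-/- and 1.75 in p53+/+ cells), and SERPINB1, an inhibitor of neutrophil proteases (1.14 and 1.25). With Nutlin-3A in p53+/+ cells 0 rose and SERPINB9 fell by 0.64 (adjusted p = 0.0231 by limma), a call lost without p53+/+ Nutlin-3A replicate 1 or 2 or DMSO replicate 1. The rises of SERPINB1 were lost without replicate 1 of the Entinostat group or replicate 2 of the DMSO group. Of 7 other IL6 family cytokines 3 passed the filter, and CLCF1, like LIF, fell with Entinostat, by 1.39 in p53-/- and 1.62 in p53+/+ cells (adjusted p = 0.0124 and 0.00643 by limma), calls lost without the same libraries. Of 2 tested relatives of KITLG, CSF1 rose with Nutlin-3A in p53+/+ cells (1.13, adjusted p = 5.73e-04 by limma) and none was called with Entinostat.

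Of 20 genes listed with the TGF-beta family 6 passed the filter. With Nutlin-3A in p53+/+ cells 2 rose, the ligand BMP7 (0.81) and BMP1 (0.53), which despite its name is a procollagen protease, and 1 was left without either Nutlin-3A library or DMSO replicate 2. With Entinostat 2 rose and 1 fell in p53-/- cells, and 3 rose in p53+/+ cells, with BMP6 at 1.23 in p53-/- and 1.11 in p53+/+ cells. The rises numbered 1 in either genotype without replicate 1 of the Entinostat group or either DMSO library. Among 7 stress response factors known to induce GDF15, ATF3 rose with Nutlin-3A in p53+/+ cells (1.53) and for the combination against Entinostat there (1.41), where 5.16% of all genes were called higher. With Entinostat 1 rose, ATF3, and 1 fell, TRIB3, in each genotype, near the shares of all genes. TRIB3 fell by 0.75 in p53-/- and 0.89 in p53+/+ cells, the first of these not without p53-/- Entinostat replicate 1 or DMSO replicate 1. The rise of ATF3 was lost in both genotypes without Entinostat replicate 1 or DMSO replicate 2, and in p53+/+ cells also without DMSO replicate 1. Of 10 p53 targets checked, 10 rose with Nutlin-3A in p53+/+ cells, MDM2 by 3.85 and CDKN1A by 3.54, and CDKN1A rose with Entinostat in p53-/- cells by 1.85 (adjusted p = 0.00464 by limma), though not without p53-/- Entinostat replicate 1 (1.42, adjusted p = 0.0621).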
